A study of Homo sapiens with 36 samples.

Results

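The genes described here encode the nuclear subunits of the mitochondrial respiratory chain and of ATP synthase. A gene was a member when its symbol began with NDUFA, NDUFB, NDUFC, NDUFS, NDUFV, UQCR, ATP5, COX4I, COX5, COX6, COX7 or COX8, or was SDHA, SDHB, SDHC, SDHD or CYC1, with NDUFAF assembly factors and pseudogenes left out. This gave 83 protein-coding genes of the 20046 genes named by a probe: 36 of complex I, 3 of complex II, 9 of complex III, 17 of complex IV and 18 of complex V. Of 94 symbols with these prefixes, 8 were assembly factors, 2 were pseudogenes and 1, NDUFB2-AS1, was a long non-coding RNA. SDHB and UQCRFS1 had no probe named for them alone and were not analysed here. COXFA4 and COXFA4L2, formerly NDUFA4 and NDUFA4L2, fell outside the prefixes under their current symbols. The rule uses symbols alone, and the probe with the highest mean stood for each gene.

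Complex I takes electrons from NADH and complex II from succinate, and both pass them to coenzyme Q. Complex III moves them on to cytochrome c, complex IV hands them to oxygen, and complex V, the ATP synthase, uses the resulting proton gradient to make ATP. Most subunits are encoded in the nucleus, and GABP, which is also called nuclear respiratory factor 2 (NRF-2), and NRF1 are textbook activators of their promoters. GABP is formed by the DNA-binding ETS protein GABPα, the product of GABPA, and a β subunit such as that of GABPB1. Normal prostate epithelium is known for exporting citrate in place of oxidizing it.

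RNA was measured on Illumina HT-12 version 4 bead arrays in 2 prostate cancer lines, castrate-resistant c42b and the androgen-dependent (AD) line LNCaP from which it derives. Each line carried 1 of 4 lentiviral constructs: a GABPα overexpression (OE) vector (pLVX_GABPa), its empty vector (EV, pLVX_EV), a GABPα knockdown (KD) hairpin (shGA), or a non-targeting (NT) control. All cells spent 48 h in charcoal-stripped serum and then received 1 nM R1881, a synthetic androgen, or ethanol vehicle. The 16 groups held 2 samples each, 32 in all, on 36 arrays, of which 4 were repeat arrays. The methods describe the RNA as coming from biological triplicates, while the labels give 2 replicates a group, mark the repeat arrays apart and do not say whether the 2 were separate cultures. The tests below measure only how these samples scatter, which may be technical. The labels do not say whether inducer was given to the OE cells, nor how many clones each stable population held, and all cultures were bulk, so fewer expressing cells and less RNA per cell cannot be told apart.

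All values are log2 normalized intensities, and each difference is given in log2 units with its standard error (SE). Levels of different genes were read on different probes and were not set against each other for amount. A member was called when its limma adjusted p, taken over all 47231 probes, was under 0.05. The background level was 7.78, the 95th percentile of 433 olfactory receptor probes. All 6 measured luminal prostate markers lay above it, as did 3 of 11 markers of other cells, CD68, COL1A1 and ALB, at means of 7.99 to 8.16. Array medians ran between 178 and 225 intensity units.

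GABPA was the targeted gene. It read 7.48, 7.77, 7.18 and 7.56 in c42b KD cells, against 7.78, 7.99, 7.96 and 8.11 in c42b NT cells. In LNCaP it read 7.66, 7.71, 7.82 and 7.62 in KD cells, against 8.11, 7.88, 8.31 and 8.01 in NT cells. The groups did not overlap in either line, and the difference was called in c42b (-0.46, SE 0.11, limma adjusted p = 0.0215) and not in LNCaP (-0.38, adjusted p = 0.101). The KD cells averaged below the background level in both lines, so the size of the fall could not be read in full. The c42b cells labelled OE held 8.14, 8.33, 8.05 and 8.2, against 8.34, 8.09, 8.11 and 8.05 in EV cells, and the LNCaP cells labelled OE held 8.24, 8.02, 8.01 and 7.75, against 8.05, 7.99, 8.28 and 7.92. The difference was 0.03 in c42b (adjusted p = 0.978) and -0.05 in LNCaP (adjusted p = 0.956). No rise was seen at this probe, and whether it lies in the part of GABPA that the vector carries was not tested. The paper reports that both western blotting and PCR showed the OE and the KD of GABPα, data that were not analysed here. These cells are called OE-labelled below.

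Of the 83, 76 averaged above the background level, or 35 of 36 in complex I, all 3 in complex II, all 9 in complex III, 12 of 17 in complex IV and 17 of 18 in complex V, against 49.4% of all genes. The brightest probes were those of ATP5F1B, the catalytic β subunit of ATP synthase (14.94), COX7C (14.71), UQCRH, the hinge protein of complex III (14.25), COX8A (14.25) and UQCRQ (14.22). The probes of UQCRH and of its near-identical copy UQCRHL may each read both transcripts. The dimmest probes were those of COX4I2 (6.64), COX7A1 (6.70), COX8C (6.71), NDUFS6, a subunit of complex I (6.78), and COX6A2 (7.63). ATP5MC3, 1 of the 3 genes for the same membrane c subunit, lay below the background level too, at 7.64.

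**Figure D1:**
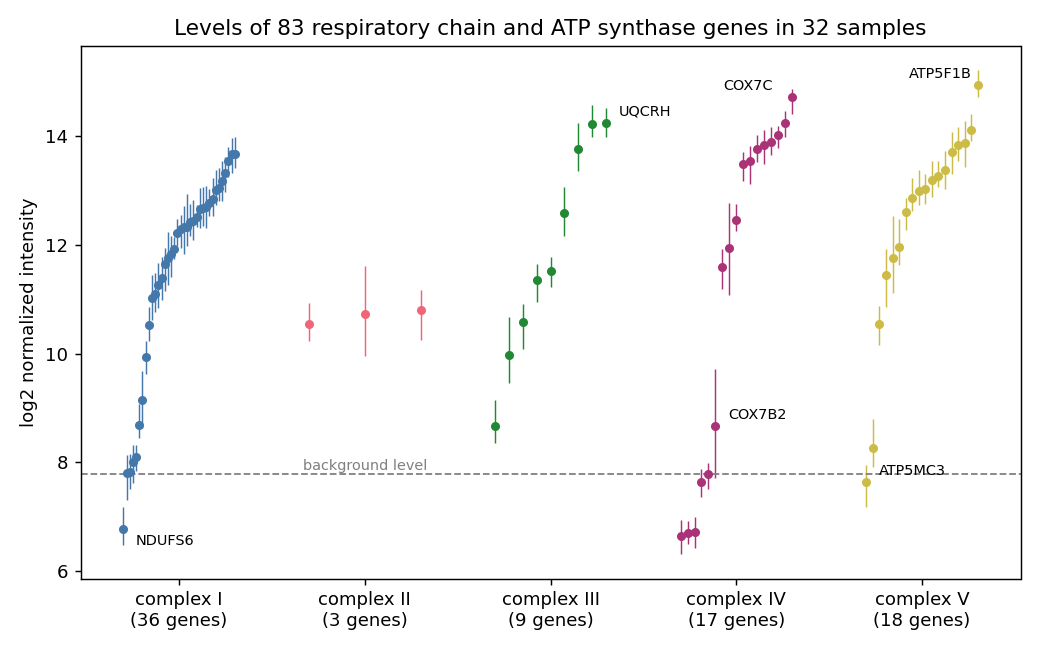
Each point is the mean log2 normalized intensity of 1 gene over 32 samples, with a line from its lowest to its highest sample, in order of level within each complex. The dashed line is the background level of 7.78, which 7 of the 83 genes fall below, and COX7B2 has the longest line.

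Isoforms that other tissues use were mostly at background. COX4I2 of lung, COX6A2 and COX7A1 of heart and skeletal muscle, and COX6B2 and COX8C of testis all averaged below 7.78. The exception was COX7B2, the testis form of the complex IV subunit COX7B, at 8.66. Its 32 samples spanned 2.01 log2 units, the widest range of any member, against a median range of 0.66. COXFA4L2, no member under its current symbol, averaged 8.02. The next widest ranges were those of COX7B (1.69), SDHD (1.65), ATP5MC1 (1.40) and UQCR10 (1.21).

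RefSeq promoter windows on GRCh38.p14, from 250 bases before to 50 after the transcription start site, were at hand for 68 of the 83 members, 9 of which had more than 1 window. Both strands were searched for CCGGAAG, 1 form of the ETS site that GABP binds, called the ETS core below. They were also searched for the NRF1 motif, taken as GCGC, any pair of bases and GCGC again. The shorter core that the paper names, GGAA or GGAT, was not searched for, so windows without CCGGAAG may still hold ETS sites. The ETS core was in a window of 20 of 68 members (29.4%) and of 16.9% of 14440 protein-coding array genes. The NRF1 motif was in 25% of these members and in 14.4% of the array genes. The part from 200 bases before to 10 after the start is printed 5′ to 3′ for the 5 members called in KD cells, and for COX5B, a complex IV subunit with a pair of ETS cores that was not called in KD cells. Capitals mark the motifs. COX7B2 lies at chr4:46909236-46909445 (minus strand), SDHD at chr11:112086673-112086882 (plus), NDUFB4 at chr3:120596136-120596345 (plus), ATP5MK at chr10:103396466-103396675 (minus), UQCR10 at chr22:29767169-29767378 (plus) and COX5B at chr2:97645862-97646071 (plus).
COX7B2: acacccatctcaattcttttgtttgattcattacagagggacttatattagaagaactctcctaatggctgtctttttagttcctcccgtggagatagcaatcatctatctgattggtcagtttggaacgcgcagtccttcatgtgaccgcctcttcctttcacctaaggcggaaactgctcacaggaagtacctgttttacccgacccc
SDHD: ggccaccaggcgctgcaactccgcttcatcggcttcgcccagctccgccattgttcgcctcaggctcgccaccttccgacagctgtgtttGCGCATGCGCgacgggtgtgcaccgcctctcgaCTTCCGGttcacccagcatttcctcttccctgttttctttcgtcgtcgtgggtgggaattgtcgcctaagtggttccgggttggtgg
NDUFB4: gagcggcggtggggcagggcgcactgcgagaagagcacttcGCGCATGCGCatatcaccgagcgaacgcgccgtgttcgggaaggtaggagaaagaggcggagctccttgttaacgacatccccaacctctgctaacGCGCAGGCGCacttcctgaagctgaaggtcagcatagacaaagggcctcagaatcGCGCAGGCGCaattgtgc
ATP5MK: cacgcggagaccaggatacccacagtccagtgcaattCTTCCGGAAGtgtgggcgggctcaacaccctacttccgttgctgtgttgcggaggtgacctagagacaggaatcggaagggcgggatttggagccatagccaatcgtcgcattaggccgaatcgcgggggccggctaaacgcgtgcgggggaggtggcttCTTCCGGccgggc
UQCR10: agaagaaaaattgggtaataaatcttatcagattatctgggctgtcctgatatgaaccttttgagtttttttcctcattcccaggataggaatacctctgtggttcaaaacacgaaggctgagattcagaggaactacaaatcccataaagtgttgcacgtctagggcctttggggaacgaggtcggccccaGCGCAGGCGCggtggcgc
COX5B: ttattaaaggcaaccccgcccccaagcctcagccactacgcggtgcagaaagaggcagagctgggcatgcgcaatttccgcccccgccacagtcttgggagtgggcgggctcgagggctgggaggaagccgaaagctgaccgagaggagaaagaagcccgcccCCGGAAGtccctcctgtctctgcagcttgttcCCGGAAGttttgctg

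In these windows SDHD held an ETS core, on the reverse strand, and an NRF1 motif. NDUFB4 held 3 NRF1 motifs and UQCR10 held 1. ATP5MK held 3 ETS cores, of which a pair on opposite strands overlapped. Neither motif was in the COX7B2 window. These matches are letters in a window and no measure of binding.

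The KD comparison asked which members changed when the GABP subunit that binds DNA was reduced. Of 83 members, 3 fell and none rose in c42b KD cells (3.61%, against 3.25% of all genes called and 1.53% called lower), and 2 rose and none fell in LNCaP KD cells (2.41%, against 2.46% of all genes called and 1.27% called higher). Among genes above the background level the shares called were 6.14% in c42b and 4.58% in LNCaP. The median difference of the members was 0.02 in c42b and 0.06 in LNCaP, beside 0.00 over all genes in both. No member was called in both lines.

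COX7B2 had the largest change. It read 7.82, 8.12, 8.09 and 7.96 in c42b KD cells, the 2 R1881 samples first, against 9.04, 8.92, 8.96 and 9.02 in c42b NT cells. All 4 KD samples lay below every NT sample and close to the background level. The difference was -0.99 (SE 0.08, a fold of 0.504, limma adjusted p = 1.68e-09), and it was called whichever sample was left out. In LNCaP it was at the background level in both groups, at 7.84, 7.78, 7.9 and 7.79 in KD cells, against 7.99, 7.76, 7.71 and 7.89 in NT cells. The KD effect differed between the lines by -0.98 (c42b minus LNCaP, SE 0.12, adjusted p = 4.46e-06).

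SDHD, a membrane anchor of complex II, read 10.92, 10.82, 11.06 and 11.03 in c42b KD cells, against 11.17, 11.31, 11.61 and 11.39 in NT cells. The groups did not overlap, and the difference was -0.42 (SE 0.10, limma adjusted p = 0.0254). In LNCaP SDHD read 10.21, 9.99, 10.09 and 9.96 in KD cells, against 10.27, 10.21, 10.31 and 10.41 in NT cells, which was not called. The c42b call was lost without NT R1881 replicate 2, NT vehicle replicate 1 or any of the 4 KD samples, at differences of -0.36 to -0.44 and adjusted p up to 0.168. SDHA, the flavoprotein of complex II, and SDHC, its other anchor, were not called in either line.

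NDUFB4, an accessory subunit of complex I, read 9.16, 8.97, 9.19 and 9.3 in c42b KD cells, against 9.61, 9.41, 9.5 and 9.68 in NT cells. All 4 KD samples lay below the lowest NT sample, and the difference was -0.39 (SE 0.08, limma adjusted p = 0.00839). The KD mean of 9.16 nonetheless lay between those of the c42b control constructs, NT at 9.55 and EV at 8.73. Its other probes averaged 7.76 and 7.52, below the background level, and were not called, and the mean of all 3 probes gave -0.16 (adjusted p = 0.393). The call was also lost without NT R1881 replicate 1, NT vehicle replicate 2, KD R1881 replicate 2 or KD vehicle replicate 1, at differences of -0.34 to -0.37. In LNCaP NDUFB4 stood at 9.19, 9.35, 9.49 and 9.46 in KD cells, against 9.14, 9.12, 9.4 and 9.14 in NT cells. The KD effect on NDUFB4 differed between the lines by -0.57 (SE 0.12, adjusted p = 0.0121).

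In LNCaP the called members were ATP5MK, a small membrane subunit of ATP synthase, and UQCR10, a small subunit of complex III. ATP5MK read 8.59, 8.7, 8.6 and 8.8 in LNCaP KD cells, against 8.26, 8.27, 8.1 and 8.22 in NT cells. It was higher in every KD sample than in any NT sample, by 0.46 (SE 0.08, limma adjusted p = 0.00121), and the call held whichever sample was left out. In c42b it stood at 8.49, 8.43, 8.28 and 8.36 in KD cells, against 8.56, 8.6, 8.28 and 8.4 in NT cells, and the KD effect differed between the lines by -0.53 (SE 0.12, adjusted p = 0.0207).

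UQCR10 read 9.98, 10.06, 10.31 and 10.29 in LNCaP KD cells, against 9.69, 9.93, 9.62 and 9.6 in NT cells. The groups did not overlap but lay close, and the difference was 0.45 (SE 0.10, limma adjusted p = 0.0172). Only 1 of its 3 probes was called, the others giving 0.21 and 0.03, and the mean of all 3 probes gave 0.23 (adjusted p = 0.0567). Leaving out NT R1881 replicate 1, either NT vehicle sample, KD R1881 replicate 2 or either KD vehicle sample lost the call, at 0.39 to 0.46 and adjusted p up to 0.127. The next smallest p in LNCaP was that of NDUFS5, a complex I subunit, which missed the threshold (0.27, adjusted p = 0.0850).

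**Figure D2:**
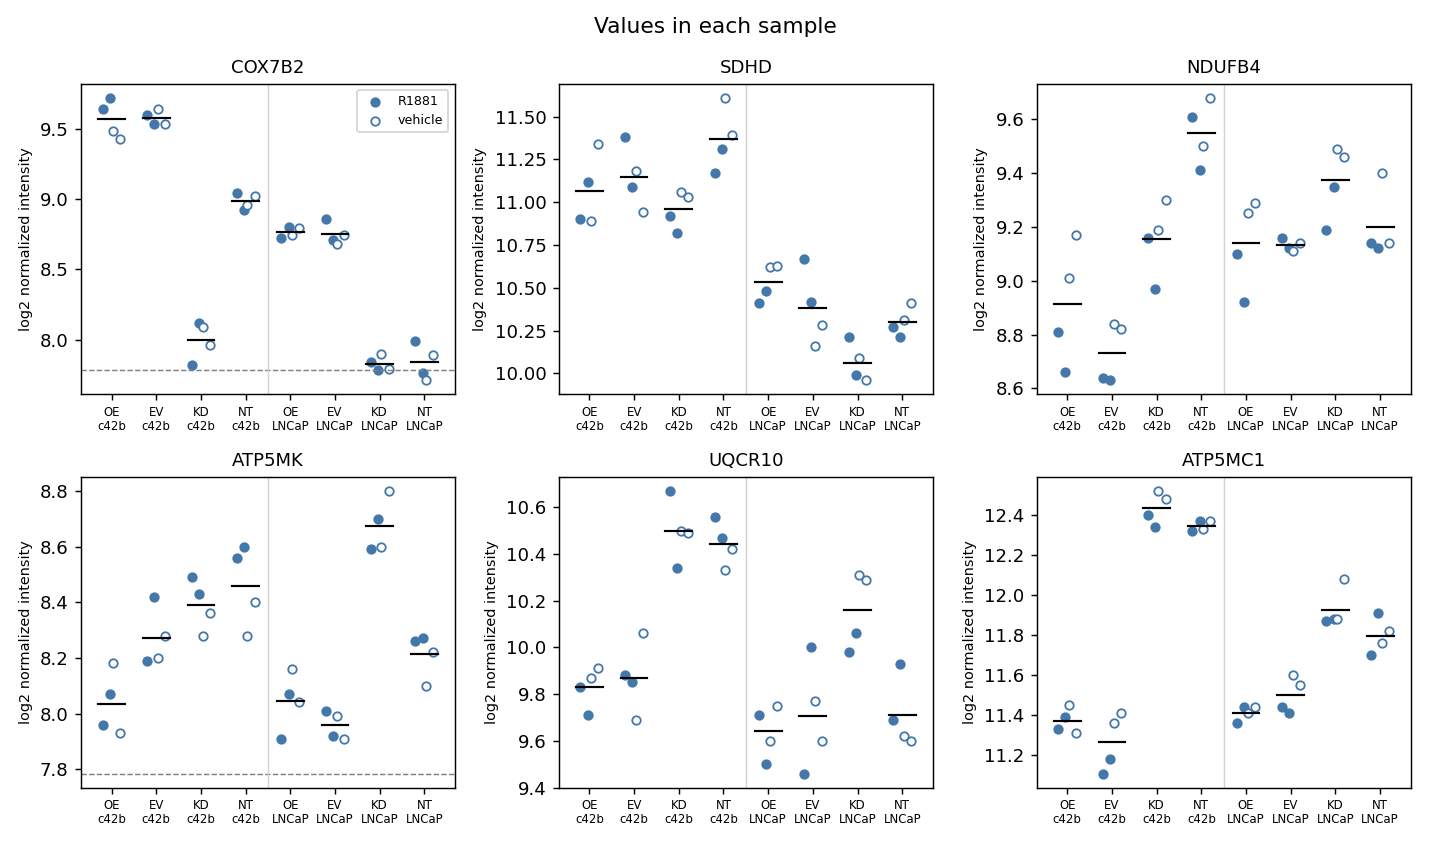
Log2 normalized intensity of 6 genes in each sample, by construct and line, with R1881 samples filled and vehicle samples open, and a bar at the mean of 4 samples. The dashed line is the background level of 7.78. COX7B2 sits near background in both KD groups and in LNCaP NT cells and is higher in all EV and OE-labelled cells than in the NT cells of the same line.

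Members with and without the ETS core had close median KD differences. The 20 members with the core had median KD differences of 0.03 in c42b and 0.07 in LNCaP, and the 48 with a window but no core had 0.03 and 0.05. COX5B, with 2 cores, was not called in either line. These medians are a description with no test.

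Probes of 1 gene did not always read alike. ATP5ME, the e subunit of ATP synthase, was represented by its brightest probe (mean 13.86), which differed by 0.11 in c42b KD cells and 0.14 in LNCaP KD cells and was not called. A dimmer ATP5ME probe (mean 10.59) differed by 1.14 in c42b (SE 0.08, limma adjusted p = 7.27e-11) and 1.04 in LNCaP (SE 0.08, adjusted p = 4.72e-10). This probe was singled out after its values were seen. A second probe of ATP5IF1, the inhibitor of ATP synthase, gave 0.46 in LNCaP KD cells (adjusted p = 0.0216), beside 0.22 for the brighter one, which was not called.

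Genes that serve the complexes without being subunits were counted beside them, with no test of the lists. Of all genes 3.25% were called in c42b KD cells and 2.46% in LNCaP KD cells, or 6.14% and 4.58% of those above background. No mitochondrially encoded subunit was measured under its own symbol. In c42b KD cells, 0 of 13 complex I assembly factors and 0 of 16 tricarboxylic acid (TCA) cycle genes were called, 1 of 21 complex IV assembly factors rose and 2 of 14 assembly factors of complexes II, III and V fell. Those that fell were SDHAF3 (-0.92, SE 0.10, limma adjusted p = 3.95e-07) and SDHAF1 (-0.36, adjusted p = 0.0137), both assembly factors for the iron-sulphur subunit of complex II, and COX20 (0.49) was the gene that rose. Both SDHAF genes fell in LNCaP KD cells as well, SDHAF3 by 0.77 (adjusted p = 1.09e-05) and SDHAF1 by 0.41, together with UQCC1 of complex III assembly (-0.38). In LNCaP no other assembly factor and no TCA cycle gene was called.

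Of 16 mobile carrier and coenzyme Q genes, PDSS1 fell (-0.75) and PDSS2 rose (0.29) in c42b KD cells. Their products together make the coenzyme Q tail. In the same list ETFA, which passes electrons from fatty acid oxidation, rose in LNCaP (0.36). Of 15 regulators, GABPB1 rose in both lines, by 0.95 in c42b (SE 0.09, limma adjusted p = 9.70e-09) and 1.02 in LNCaP (SE 0.09, adjusted p = 1.90e-09). It averaged 10.42 ± 0.10 in c42b KD cells and 9.47 ± 0.12 in c42b NT cells (SD, n = 4 each), and 9.93 ± 0.26 in LNCaP KD cells and 8.91 ± 0.22 in LNCaP NT cells. Besides GABPA in c42b, MYC fell in LNCaP KD cells (-0.38).

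No member was called between OE-labelled and EV cells in either line. By limma, 7 of 83 had an unadjusted p under 0.05 in c42b and 3 in LNCaP. All genes were not counted at this unadjusted threshold, and the shares that follow use adjusted p. The shares of all genes called were 0.15% in c42b and 0.0449% in LNCaP, and the member medians were -0.02 and -0.01. The smallest p in c42b were those of NDUFB9 (-0.38, SE 0.11, adjusted p = 0.106), ATP5MK (-0.24, adjusted p = 0.271) and NDUFC2 (0.21), and in LNCaP those of COX4I2 (0.26, adjusted p = 0.236), UQCRHL (0.21) and UQCRB (0.23). NDUFB9 has no value in c42b KD R1881 replicate 1, which this comparison does not use.

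No member was called between R1881 and vehicle in the control cells, where EV and NT cells of a line were combined. The shares of all genes called were 1.55% in c42b and 2.97% in LNCaP, and 2.81% and 5.43% of the genes above the background level. By limma, 1 of 83 members had an unadjusted p under 0.05 in c42b and 6 in LNCaP. The shares above use adjusted p, and all genes were not counted at the unadjusted threshold. Differences ran between -0.18 and 0.15 in c42b and between -0.21 and 0.29 in LNCaP, with medians of -0.01 and 0.02. NDUFC1 (0.29, SE 0.09, adjusted p = 0.157), NDUFC2 (0.27, adjusted p = 0.166) and NDUFB11 (-0.21, adjusted p = 0.456), all of complex I, had the smallest p in LNCaP, and NDUFAB1 (-0.18, adjusted p = 0.559), ATP5MK (0.15) and ATP5F1E (0.14) in c42b.

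Among the associated genes the androgen response did include called genes. NDUFAF4, a complex I assembly factor, was lower with R1881 in c42b (-0.38, SE 0.08, limma adjusted p = 0.00672) and in LNCaP (-0.70, SE 0.08, adjusted p = 6.91e-07). It averaged 10.22 with R1881 and 10.60 with vehicle in c42b, and 10.01 and 10.71 in LNCaP. MYC fell in c42b (-0.67) and GABPB1 rose in LNCaP (0.47), and no TCA cycle gene or other assembly factor was called in either line. No member was called when KD or OE effects were compared between arms, or OE or androgen effects between lines. By limma, unadjusted p was under 0.05 for 5 and 0 members for KD by arm in LNCaP and c42b, 3 and 5 for OE by arm, 5 for OE by line and 3 for androgen by line. The shares that follow use adjusted p and are no match for these unadjusted counts. Of all genes, 0.0748% and 0.0249% were called for KD by arm in LNCaP and c42b, 0.00499% and 0.0449% for OE by arm, 0.0549% for OE by line and 0.444% for androgen by line.

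**Figure D3:**
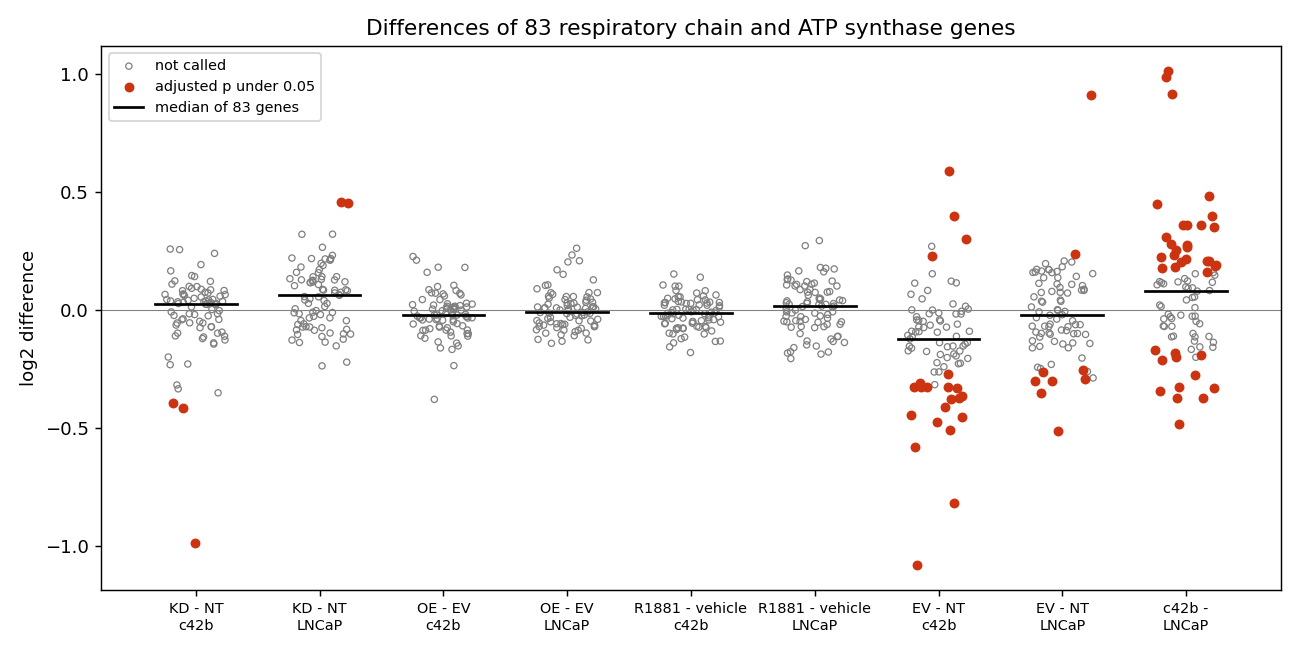
Log2 difference of each of 83 genes in 9 comparisons, with called genes filled red and a bar at the median. Called genes are 3 and 2 in the KD comparisons, 0 in the OE and androgen comparisons, 22 and 9 between EV and NT cells of c42b and LNCaP, and 38 between the lines.

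More members differed between the control constructs than in any GABPα or androgen comparison, and so did more of all genes. Of all genes 18% were called in c42b and 11.9% in LNCaP, against up to 3.25% in the GABPα and androgen comparisons. In c42b EV cells 18 of 83 members were lower and 4 higher than in NT cells. The lower ones made up 21.7% of members, against 8.43% of all genes and 15% of genes above the background level. The higher ones made up 4.82%, against 9.58% of all genes and 17.9% of those above background. In either direction 26.5% of members, 18% of all genes and 32.9% of those above background were called. The median member difference was -0.12, with 17 of 83 positive, beside 0.01 over all genes. With arrays centred on their medians instead of quantile normalized, 1 member was higher and 25 lower, and the median was -0.22.

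The lower members came from all 5 complexes: 9 of 36 in complex I, 1 of 3 in complex II, 3 of 9 in complex III, 1 of 17 in complex IV and 4 of 18 in complex V. ATP5MC1, which encodes the c subunit of the ATP synthase rotor, had the largest difference. It read 11.11, 11.18, 11.36 and 11.41 in c42b EV cells, against 12.32, 12.37, 12.33 and 12.37 in NT cells. The difference was -1.08 (SE 0.08, a fold of 0.473, limma adjusted p = 2.15e-12), and its second probe gave -1.36.

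NDUFB4 read 8.64, 8.63, 8.84 and 8.82 in c42b EV cells, against 9.61, 9.41, 9.5 and 9.68 in NT cells (-0.82, SE 0.08, limma adjusted p = 1.13e-08). Its other probes, both below background, gave -0.10 and -0.02. UQCR10 differed by -0.58 (SE 0.10), with 2 of its 3 probes called, and CYC1, the cytochrome c1 haem protein of complex III, by -0.51 (SE 0.08). The next lower values were those of NDUFA7 (-0.47), ATP5MF (-0.45), UQCR11 (-0.45) and ATP5MC3 (-0.41). ATP5MC3 averaged 7.39 in EV cells, below the background level, and 7.80 in NT cells, close to it, so the size of its difference could not be read in full. The 4 higher members were COX7B2 (0.59), COX7A2L, which helps form supercomplexes of the chain (0.40), NDUFA11 (0.30) and NDUFA3 (0.23).

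Some of these calls lay close to the threshold, such as those of NDUFA3 (limma adjusted p = 0.0432) and COX7B (adjusted p = 0.0431). All 32 samples share 1 estimate of the spread, so leaving out a sample outside this comparison can lose such a call too. Leaving out samples 1 at a time lost the call of NDUFA3 for 15 of the 32 samples, of COX7B for 9, of NDUFV1 for 5, of NDUFAB1 and NDUFA11 for 4 each and of UQCR11 for 1. The count stayed between 17 and 23. Within the R1881 arm 2 members were higher and 11 lower, where 5.56% of all genes were higher and 5.08% lower. Within the vehicle arm 3 were higher and 11 lower, where 5.94% of all genes were higher and 5.26% lower.

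In LNCaP, 7 members were lower and 2 higher in EV than in NT cells (10.8%, against 11.9% of all genes and 21.8% of those above background). Over all genes 5.76% were lower and 6.17% higher. The median was -0.02. NDUFV1, the flavoprotein of complex I that accepts electrons from NADH, read 11.48, 11.39, 11.62 and 11.5 in LNCaP EV cells, against 11.91, 11.88, 12.02 and 12.23 in NT cells (-0.51, SE 0.09, limma adjusted p = 6.82e-05). The groups did not overlap. CYC1 (-0.35, adjusted p = 0.00212), COX5B (-0.30), ATP5MC1 (-0.30), NDUFS7 (-0.29), ATP5F1D (-0.26) and ATP5MK (-0.26) were the other lower members, and COX6B1 (0.24) and COX7B2 (0.91) the higher ones.

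The LNCaP count fell to 4 without LNCaP NT R1881 replicate 2, and to 5 without LNCaP NT vehicle replicate 2, EV R1881 replicate 2 or either EV vehicle sample. The calls lost most often were ATP5F1D, for 23 of 32 samples, ATP5MK for 20, COX6B1 for 14 and NDUFS7 for 7. COX5B lost its call for 2 samples and ATP5MC1 for 1.

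COX7B2 was higher in EV than in NT cells of both lines. It read 9.6, 9.53, 9.64 and 9.53 in c42b EV cells, against 9.04, 8.92, 8.96 and 9.02 in NT cells, a difference of 0.59 (SE 0.08, limma adjusted p = 3.89e-06). It read 8.86, 8.71, 8.68 and 8.74 in LNCaP EV cells, against 7.99, 7.76, 7.71 and 7.89 in NT cells, a difference of 0.91 (SE 0.08, adjusted p = 9.95e-10). The LNCaP NT samples were at the background level and every EV sample was above it.

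Between the lines, the EV minus NT difference was tested directly and differed for 5 members (6.02%, against 5.17% of all genes). All 5 were more negative in c42b than in LNCaP: ATP5MC1 by -0.78 (SE 0.11, limma adjusted p = 3.48e-05), NDUFB4 by -0.75 (SE 0.12, adjusted p = 0.000377), ATP5MC3 by -0.57, and the complex I subunits NDUFA6 by -0.51 and NDUFB3 by -0.48. For the KD effect, the 3 members that differed between lines were COX7B2, NDUFB4 and ATP5MK, given above (3.61%, against 1.6% of all genes). Both shares of all genes include genes at background, and interactions were not counted for those above background alone.

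OE-labelled and KD cells, which the EV and NT comparison does not use, gave the same sign for 21 of the 22 members called in c42b and for all 9 called in LNCaP. The exception was NDUFA11 (-0.12). How often the sign agreed over all genes called between EV and NT cells is not given here. Over all 83 members, 33 were lower in every c42b OE-labelled sample than in any c42b KD sample (39.8%, against 10.5% of all genes) and 5 were higher (6.02%, against 10.7%). In LNCaP 17 were lower without overlap (20.5%, against 7.5% of all genes) and 5 higher (6.02%, against 7.89%). These shares of all genes include genes at background, and overlap was not counted for those above background alone. ATP5MC1 read 11.33, 11.39, 11.45 and 11.31 in c42b OE-labelled cells, against 12.4, 12.34, 12.52 and 12.48 in c42b KD cells. In LNCaP it read 11.36, 11.44, 11.41 and 11.44, against 11.87, 11.88, 11.88 and 12.08. These cells differ in vector and in GABPα target at once, and the parts of the 2 cannot be told apart.

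The mean over 82 members with a value in all samples was also taken for each sample. In c42b it lay between 11.59 and 11.63 in EV cells and between 11.57 and 11.60 in OE-labelled cells, against 11.73 to 11.76 in NT cells and 11.69 to 11.75 in KD cells. By this mean the OE-labelled and EV samples of c42b lay below all its KD and NT samples. By the median over the same members they did not all do so, since c42b EV cells lay between 12.32 and 12.39, against 12.32 to 12.43 in NT cells, and OE-labelled cells between 12.24 and 12.27, against 12.32 to 12.47 in KD cells. In LNCaP it lay between 11.58 and 11.62 in EV cells and between 11.57 and 11.65 in OE-labelled cells, against 11.61 to 11.63 in NT cells and 11.61 to 11.71 in KD cells, and the constructs overlapped.

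**Figure D4:**
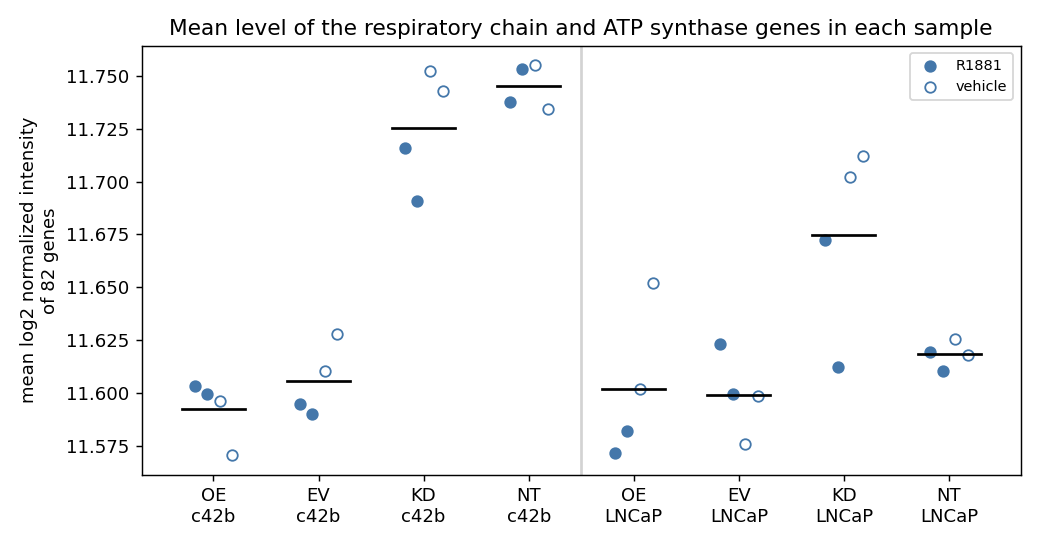
Mean log2 normalized intensity of 82 genes in each sample, by construct and line, with R1881 samples filled and vehicle samples open, and a bar at the mean of 4 samples. In c42b the 8 OE-labelled and EV samples lie below the 8 KD and NT samples, while the LNCaP groups overlap. By the sample median the c42b EV and NT samples overlap too.

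The associated genes were counted in EV cells as well, with no test of the lists, where 8.43% of all genes were lower and 9.58% higher in c42b, 15% and 17.9% of those above background, and 5.76% of all genes were lower and 6.17% higher in LNCaP. In c42b, 8 of 16 TCA cycle genes were lower and 1 higher, with a median of -0.31, led by IDH2 (-0.77), PDHA1 (-0.49) and DLAT (-0.47), with IDH3G higher (0.44). In LNCaP 3 of 16 were lower and 1 higher, with IDH2 (-0.54), CS, citrate synthase (-0.33), IDH3B (-0.30) and IDH3G (0.27). The mitochondrial DNA packaging factor TFAM was lower by 0.45 in c42b (limma adjusted p = 0.000271) and by 0.28 in LNCaP (adjusted p = 0.0253). Of the carriers, 5 of 16 were lower and 1 higher in c42b and 4 lower in LNCaP, with PDSS1 at -0.98 and -0.52 and the adenine nucleotide carrier SLC25A5 at -0.49 and -0.34.

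Assembly factors, 13 for complex I, 21 for complex IV and 14 for complexes II, III and V, were mixed. The shares of all genes given above for EV cells apply here too. In c42b EV cells 3 complex I factors were lower, led by FOXRED1 (-0.79), and 6 complex IV factors were lower and 3 higher, with COX20 (0.76) and COA5 (0.54) the leading ones. In c42b 3 factors of complexes II, III and V were lower, led by BCS1L (-0.57). In LNCaP 2 complex I factors were lower and NDUFAF4 higher (0.50), 2 complex IV factors were lower and COX20 higher (0.37), and of the remaining factors 3 were lower, led by FMC1 (-0.34), and UQCC1 was higher (0.27). Of the genes once named NDUFA4 and NDUFA4L2, COXFA4L2 was higher in c42b EV cells (1.34, adjusted p = 4.68e-08) and COXFA4 in LNCaP EV cells (0.28, adjusted p = 0.0195).

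Between control cells of the lines, 38 of 83 members were called (45.8%), 26 higher and 12 lower in c42b than in LNCaP, against 28.6% of all genes and 50.7% of the genes above the background level. Of all genes 14.9% were higher and 13.7% lower, and of those above background 25.9% and 24.8%. The median difference was 0.08, beside 0.00 over all genes. Higher and lower calls numbered 10 and 6 in complex I, 2 and 1 in complex II, 4 and 0 in complex III, 3 and 1 in complex IV and 7 and 4 in complex V.

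COX7B, the widely expressed form of this complex IV subunit, had the largest difference. It read 12.34, 12.3, 12.43 and 11.93 in c42b EV cells and 12.68, 12.52, 12.77 and 12.48 in c42b NT cells, against 11.66, 11.65, 11.08 and 11.61 in LNCaP EV cells and 11.42, 11.28, 11.51 and 11.15 in LNCaP NT cells. Every c42b sample was higher than every LNCaP sample, by 1.01 on average (SE 0.08, a fold of 2.02, limma adjusted p = 1.85e-11).

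SDHD read 11.38, 11.09, 11.18 and 10.94 in c42b EV cells and 11.17, 11.31, 11.61 and 11.39 in c42b NT cells, against 10.67, 10.42, 10.16 and 10.28 in LNCaP EV cells and 10.27, 10.21, 10.31 and 10.41 in LNCaP NT cells. These groups did not overlap either (0.92, SE 0.07, limma adjusted p = 4.80e-12). SDHA was higher too (0.23), while SDHC was lower (-0.37, SE 0.07), so the 3 measured subunits of complex II differed in both directions.

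COX7B2 was higher by 0.99 (SE 0.06, limma adjusted p = 1.38e-14), with LNCaP NT cells at the background level. NDUFB5 (0.48), UQCR10 (0.45), NDUFB9 (0.40), NDUFB7 (0.36) and UQCRHL (0.36) followed, of which NDUFB5, NDUFB7 and NDUFB9 belong to the membrane arm of complex I. The lowest was NDUFB11, also of the membrane arm, at 12.13, 12.06, 12.01 and 12.13 in c42b EV cells and 12.11, 12.16, 11.98 and 12 in c42b NT cells, against 12.4, 12.4, 12.58 and 12.52 in LNCaP EV cells and 12.47, 12.54, 12.6 and 12.92 in LNCaP NT cells. The difference was -0.48 (SE 0.06, adjusted p = 2.62e-07) and the groups did not overlap. NDUFC2 (-0.37), ATP5IF1 (-0.34), NDUFA3 (-0.33), NDUFA13 (-0.33), COX4I1 (-0.28) and NDUFA2 (-0.21) were among the others. NDUFC2 averaged 7.59 in c42b, below the background level, and 7.96 in LNCaP, so the size of its difference could not be read in full.

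The direction of several line differences depended on the construct or the probe. In EV cells alone 10 of 83 members were called higher and 17 lower in c42b, where 11.3% of all genes were higher and 11.1% lower. In NT cells alone 28 were higher and 6 lower, where 11.5% of all genes were higher and 10.9% lower. A second, dimmer probe of ATP5IF1 was higher in c42b (0.25, limma adjusted p = 0.0171), opposite to the brightest one, and ATP5MG, the g subunit of ATP synthase, was higher on its brightest probe (0.21) and lower on the other (-0.18, adjusted p = 0.0177). Leaving out samples 1 at a time kept the count between 36 and 39 and lost the call of ATP5MC1 for 8 samples, of ATP5F1A for 6, of NDUFS7, NDUFS3, CYC1 and ATP5ME for 2 each and of NDUFA11 and ATP5MC3 for 1 each.

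KD and OE-labelled cells, which the control comparison does not use, repeated most of the signs. Of the 38 members, 35 had the same sign in KD cells and 34 in OE-labelled cells. The agreement of sign over all genes called between the lines is not given here. Over all 83 members, 23 were higher without overlap in c42b KD cells than in LNCaP KD cells (27.7%, against 11.5% of all genes) and 8 were lower (9.64%, against 9.79%). In OE-labelled cells 14 were higher without overlap (16.9%, against 12% of all genes) and 17 lower (20.5%, against 11.4%), so the balance of directions differed between the constructs. Overlap between the lines was not counted for genes above the background level alone. With each of the 4 constructs, 9 of the 83 members did not overlap between the lines. COX7B, SDHD, NDUFB2, NDUFB5, NDUFB7, COX5A and ATP5PO were higher, and COX4I1 and ATP5IF1 lower, in all c42b samples than in the LNCaP samples with the same construct. The higher ones made up 8.43% of members, against 4.08% of all genes, and the lower ones 2.41%, against 4.25%. The shares of all genes include genes at background.

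COX4I1, the common form of the complex IV subunit whose lung form is COX4I2, read 13.85, 13.91, 13.86 and 13.83 in c42b KD cells, against 13.95, 13.94, 13.97 and 14.11 in LNCaP KD cells. NDUFB7 read 12.74, 12.58, 12.67 and 12.61 in c42b KD cells, against 12.24, 12.09, 12.41 and 12.31 in LNCaP KD cells. Neither gene overlapped between the lines. COX7B2 overlapped between the KD cells of the lines, where it was near background in both.

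**Figure D5:**
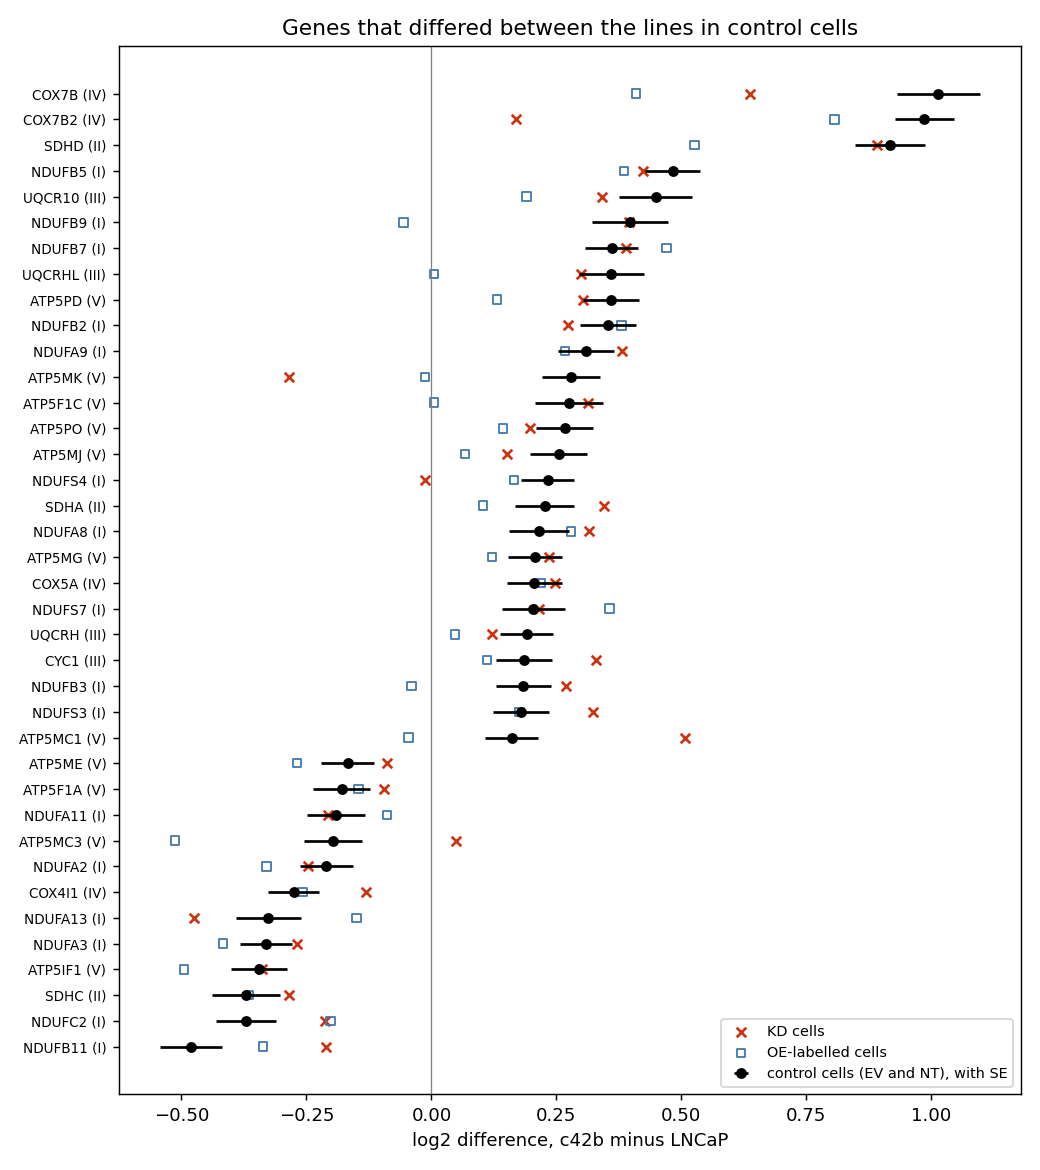
Log2 difference between c42b and LNCaP for the 38 genes called in control cells (black, with SE), and the same difference in KD cells (crosses) and OE-labelled cells (squares), with the complex in brackets. ATP5MK, NDUFS4 and ATP5MC3 change sign in KD cells and ATP5MK, NDUFB3, NDUFB9 and ATP5MC1 in OE-labelled cells.

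Associated genes differed between the lines in both directions, as did 14.9% of all genes, higher, and 13.7%, lower, or 25.9% and 24.8% of those above background. Of the assembly factors, 4 of 13 for complex I were higher and 2 lower in c42b, 7 of 21 for complex IV were higher and 5 lower, and 6 of 14 for complexes II, III and V were higher and 4 lower, with SDHAF3 higher (1.28, SE 0.07, limma adjusted p = 2.64e-15) and UQCC1 lower (-0.89). Of 16 TCA cycle genes 7 were higher, led by DLD (0.53), and 5 lower, among them SUCLG2 (-0.44) and SUCLA2 (-0.42). Of 15 regulators 5 were higher and 1 lower, with HCFC1 (2.14), TFB2M (0.47), the orphan receptor gene ESRRA (0.37) and GABPB1 (0.41) higher. GABPA was not called (-0.01, adjusted p = 0.952).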

How the data were processed

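The deposited intensity table holds linear bead-type intensities of 36 arrays, which the authors made after removing spatial artefacts with BASH and HULK of beadarray (versions not given in the sources used here), and a deposited log2 table of the same arrays holds the authors' log2 quantile-normalized values, used as an alternative. Intensities were log2 transformed and quantile normalized, repeat arrays averaged, and group means fitted with limma 3.58.1 in R 4.3.3 and tested with moderated statistics. Benjamini-Hochberg adjustment ran over all 47231 probes, jointly over 6 KD, OE and androgen comparisons, 2 EV and NT comparisons and 8 interactions, and alone for the lines. Per gene the probe with the highest mean log2 was used, named from GEO's platform annotation, in which 30113 probes name 1 gene and 8 several. Of all intensities 94 were missing. Named members are up to 8 highest and 8 lowest called in each comparison, with the 3 smallest p where under 4 were called, and up to 4 called genes per other list. Members and lists were chosen with earlier results of these data known. The fit was tested on simulated data. The methods name pSicoR for OE and pLVX for KD, the reverse of the labels, and the labels were followed. They also state biological triplicates, where the labels give 2 replicates.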

Additional observations from a re-analysis of the deposited data

Results flagged for a closer look

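For 8 member differences the effect differed between the lines by the limma interaction test. The KD effect in c42b minus that in LNCaP was -0.98 for COX7B2 (adjusted p = 4.46e-06), -0.57 for NDUFB4 (adjusted p = 0.0121) and -0.53 for ATP5MK (adjusted p = 0.0207). COX7B2 was at background in LNCaP NT cells, so a further fall there could not be read. The EV minus NT difference in c42b minus that in LNCaP was -0.78 for ATP5MC1 (adjusted p = 3.48e-05), -0.75 for NDUFB4 (adjusted p = 0.000377), -0.57 for ATP5MC3 (adjusted p = 0.00856), -0.51 for NDUFA6 (adjusted p = 0.0294) and -0.48 for NDUFB3 (adjusted p = 0.0303). ATP5MC3 averaged below the background level over all samples and in c42b EV cells, and NDUFB4 rested on 1 of 3 probes. Both NDUFB4 interactions were lost with the mean of all its probes (-0.21, adjusted p = 0.552, for KD, and -0.25, adjusted p = 0.403, for EV minus NT). Leaving out samples 1 at a time lost the ATP5MK interaction for 8 of 32 samples and those of NDUFA6 and NDUFB3 for 11 each, and lost the NDUFB4 interaction with KD without c42b NT R1881 replicate 1, c42b NT vehicle replicate 2 or LNCaP NT vehicle replicate 2 (-0.50 to -0.52). Groups of 2 samples were too small to look for single outlying samples.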

How the results depend on the processing

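Counts of called members below are set against 2 for KD in LNCaP, 3 for KD in c42b, 0 for OE and androgen, 38 for c42b against LNCaP, 9 and 22 for EV against NT in LNCaP and c42b, and 8 over the interactions. Median centring gave 1 for KD in LNCaP and 5 for EV against NT in LNCaP. With only brighter probes tested, the counts were 4 for KD in LNCaP (all higher), 5 for KD in c42b (1 higher and 4 lower), 1 for OE in c42b, 2 for androgen in LNCaP, 17 for EV against NT in LNCaP (4 higher and 13 lower) and 14 for the interactions. The mean of all probes gave 5 for KD in LNCaP (all higher), 5 for KD in c42b (2 higher and 3 lower) and 18 for EV against NT in LNCaP (5 higher and 13 lower). Adjustment within each comparison gave 13 interactions, and a fit of each line alone gave 1 for OE in c42b. The R1881 arm alone gave 0 for KD in LNCaP, 1 for KD in c42b, 22 between lines, and 3 in LNCaP and 13 in c42b for EV against NT. The vehicle arm alone gave 1 for KD in c42b, 25 between lines, and 4 and 14 for EV against NT. These arms hold fewer samples. OE-labelled cells in place of controls gave 24 between lines, and OE-labelled against KD cells, in place of EV against NT, gave 17 in LNCaP, both chosen after seeing the data. For the other counts that moved the cause was not tested. For most of these settings the share of all genes called was not counted, so a count that moved is no result about the members.

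Leaving out 1 sample at a time gave 1 to 2 for KD in LNCaP, 1 to 4 for KD in c42b, 0 to 1 for OE in c42b, 36 to 39 between lines, 4 to 9 and 17 to 23 for EV against NT in LNCaP and c42b, and 5 to 9 interactions, and always 0 for OE in LNCaP and for androgen. The KD count in c42b was 1 without KD R1881 replicate 2 or KD vehicle replicate 1. The interactions numbered 5 without NT replicate 2 of either c42b arm, LNCaP NT R1881 replicate 1 or LNCaP NT vehicle replicate 2.

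Replicate numbers did not pair the samples, as deviations of same-numbered samples correlated between -0.14 and 0.20 over 20 pairs of groups, with 4 above 0.1. With the replicate number as a block, the counts were 4 for KD in c42b and 23 for EV against NT in c42b, and stayed at 2, 0, 38, 9 and 8 for KD in LNCaP, OE and androgen, the lines, EV against NT in LNCaP and the interactions.

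The next counts cover only members called in a comparison, over all alternatives and samples left out. Of their values, 3327 kept the call, 349 lost it and 12 changed sign. Members not called at first were not followed. Between lines in EV cells alone ATP5MC1 gave -0.23, NDUFA11 0.011 and NDUFB3 -0.056, and in NT cells alone ATP5MC3 gave 0.089. In KD cells ATP5MC3 gave 0.049, ATP5MK -0.28 and NDUFS4 -0.013, and in OE-labelled cells ATP5MC1 gave -0.045, ATP5MK -0.012, NDUFB3 -0.040 and NDUFB9 -0.056. NDUFA11 gave -0.12 for OE-labelled against KD cells in c42b. The cause was not tested. Array signal limits the 7 members below background, for which a fall could not be read in full, and 2 samples a group limit precision throughout.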
